A study of Mus musculus with 12 samples.

Results

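The contacts of a pair of neighbouring promoters, those of Rhbdf1 and Mpg, were compared with each other inside each library of a Capture-C experiment. The comparison used 6 of the 12 libraries of the series, namely those captured from promoters, and in each of them the rows read from the Rhbdf1 viewpoint and the rows read from the Mpg viewpoint. Only chromosome 11 (mm9) was used, and each viewpoint was scaled to its own chromosome 11 counts. The stretch that holds both viewpoints, chr11:32121404-32126672, was left out. This left 48109 fragments with at least 1 count for either promoter, of 120011 chromosome 11 fragments listed in any table of the series, and 3 fragments with counts fell in the stretch that was left out. Chromosome conformation was measured by Next-generation Capture-C, in which chromatin is crosslinked, cut with DpnII and religated, and ligation products of chosen fragments are enriched and sequenced. The cells were CD71+ erythroid cells purified at day 7 from embryoid bodies grown from mouse E14TG2a.IV embryonic stem cells of strain 129/Ola. WT denotes the unmodified line (3 libraries). D3839 denotes the same line after homozygous replacement of the CTCF cores at HS-38 and HS-39.5, which lie between Mpg and the α-globin enhancers (3 libraries). The D3839 tracks of the study came from a pair of separately made clones, so that at least 2 of the 3 D3839 libraries share a clone. Their titles hold the names CTCFDKO_A3 (library 1), CTCFDKO_A81 (library 2) and CTCFDKO_A82 (library 3) without saying what these denote. No label separates genotype from batch, so their effects cannot be told apart. The tables hold contacts only, so the erythroid label was not checked against marker genes here.

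Rhbdf1 encodes an inactive rhomboid protein that assists the trafficking of the protease ADAM17, and Mpg encodes N-methylpurine DNA glycosylase, which removes alkylated bases in base excision repair. They are transcribed away from each other, so that the Rhbdf1 body lies on the side of Snrnp25, a gene of the minor spliceosome, and the Mpg body on the side of Nprl3. Nprl3 encodes a subunit of the GATOR1 complex, and its introns hold most of the α-globin enhancers, with R1 and R2 as the strongest. Beyond Nprl3 lie Hba-x, the embryonic ζ-globin gene, and Hba-a1 and Hba-a2, the adult α-globin genes. CTCF bound at convergent sites halts loop extrusion by cohesin and so tends to separate neighbouring domains. Because both promoters are read from the same ligated sample, the number of cells and the quality of ligation are shared by the pair. Whether the size of their difference varies with the quality of ligation was not tested.

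The sequences that define the comparison are the CTCF cores that were lost and the Mpg viewpoint promoter. The cores, as given in the study's supplementary methods and each replaced there by the ScaI site AGTACT, are printed whole in capitals because every base of them was replaced.
HS-38 core: TACCCTCTGGTGGC
HS-39.5 core: CTGGCCACTGGGGG
The Mpg promoter is shown because the cut sites of DpnII set where its viewpoint fragments begin and end. It is the RefSeq window from 250 bases before to 50 bases after the gene start (GRCm38.p6, plus strand, chr11:32226255-32226554), with its single GATC, the site that DpnII cuts, in capitals.
Mpg promoter: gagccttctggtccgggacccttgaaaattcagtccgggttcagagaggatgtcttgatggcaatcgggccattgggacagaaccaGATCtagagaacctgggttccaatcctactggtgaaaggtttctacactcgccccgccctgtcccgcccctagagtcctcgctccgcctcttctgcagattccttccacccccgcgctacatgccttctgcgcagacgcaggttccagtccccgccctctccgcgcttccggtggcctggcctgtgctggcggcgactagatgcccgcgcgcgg
GATC, which reads the same on both strands, occurs in 15758 of the 32851 promoter windows of that table (48.0%). Of 8 genes of the region that were looked up 7 had an entry, Rhbdf1 being the one without, and 2 of the 7 held a GATC. The windows of Hba-a1 and Hba-a2 were equal at 297 of 297 aligned bases, so the reads assigned to either adult gene may be shared between them, which affects both viewpoints of a library alike.

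The Rhbdf1 promoter gave 10345 to 19165 interactions per WT library and 26350 to 39202 per D3839 library, and the Mpg promoter gave 11987 to 23222 and 33560 to 51900. The Mpg promoter was the deeper of the pair in 6 of 6 libraries, by a ratio of 1.10 to 1.21 in WT and 1.27 to 1.35 in D3839, without overlap. Counts on chromosome 11 ran from 5664 to 36786 per viewpoint, so that a fragment with 0 counts allows a share of up to 0.053% in the shallowest and 0.0082% in the deepest (3 counts, counting error only). Libraries were compared through the chi-square of their counts per degree of freedom, where counting noise alone gives about 1. This used the fragments of the domain with at least 20 counts in the pair (79 to 154 for pairs of WT libraries and 1 promoter). For 1 promoter, pairs of WT libraries gave 0.655 to 0.827 and pairs of D3839 libraries 1.10 to 1.62. Over these fragments the WT libraries thus differed by no more than counting noise in every pair. In the share of Rhbdf1 interactions on chromosome 11, WT library 3 was the lowest (54.8% against 60.0% and 60.0%). D3839 libraries 2 and 3 were more alike (1.10 for Mpg and 1.14 for Rhbdf1) than either was to library 1 (1.43 to 1.62), so the 3 may not be 3 independent units. The exact paired permutation tests over 6 pairs given below take all 6 libraries as independent. If libraries 2 and 3 are 1 unit, no such test could give a p under 0.05. With libraries 2 and 3 counted as 1, which was chosen after seeing the data, the genotypes still did not overlap at the boundary, the globin genes and the 3' flank in the log2 ratio of Rhbdf1 to Mpg relative to distance (D3839 minus WT -0.27, 0.21 and 0.17), where the smallest exact p is 0.2. Libraries of 1 genotype also had more fragments in common on other chromosomes (1.15% to 3.57% of the smaller list) than libraries of different genotypes (0.27% to 0.77%), and whether they share ligated molecules was not tested. The spread between libraries, on which every p-value here rests, may therefore be technical. The Rhbdf1 and Mpg promoters of 1 library gave 1.04 to 1.85 in WT and 5.18 to 6.92 in D3839, and this value also rises with depth.

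Each promoter's interactions were first divided into those on its own chromosome and those elsewhere. The Rhbdf1 promoter had the larger share in cis in 6 of 6 libraries. In WT, 60.0%, 60.0% and 54.8% of the Rhbdf1 interactions lay on chromosome 11, against 55.3%, 52.5% and 51.7% of the Mpg interactions. In D3839 the shares were 72.2%, 77.0% and 75.1% for Rhbdf1 and 68.7%, 72.6% and 70.9% for Mpg. The difference was 5.08 ± 2.21 percentage points in WT and 4.05 ± 0.43 in D3839 (SD, n = 3 pairs each), which in an exact paired permutation test gives p = 0.25, the limit for 3 pairs. Over all 6 pairs it was 4.57 ± 1.53 points (exact paired permutation test, p = 0.031, the limit for 6 pairs if all are independent). Both shares were higher in every D3839 library than in any WT library, while the gap between the promoters was of similar size.

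Next it was asked to which side each promoter reached, with distances taken from each promoter's own viewpoint. The windows of the promoters are shifted against each other by the 3.92 kb between the viewpoints. At 5 to 20 kb they are not fully matched, because the Snrnp25 stretch (chr11:32104554-32106268), which holds no counts in this capture, falls in the Rhbdf1 window and outside that of Mpg. At 20 to 80 kb the same stretch falls in the Mpg window and outside that of Rhbdf1. Near the promoters the genotypes differed in the side reached. At 5 to 20 kb, WT Rhbdf1 had 57.0%, 57.3% and 58.0% of its interactions on the globin side and WT Mpg had 49.9%, 49.9% and 51.0%. The WT Mpg share was close to even, and that of WT Rhbdf1 was 7.13 ± 0.19 points higher (SD, n = 3). In D3839 the Rhbdf1 shares were 58.9%, 53.7% and 54.3% and the Mpg shares 58.8%, 59.3% and 57.5%. The difference was -2.95 ± 2.91 points, and no D3839 library overlapped the WT libraries (exact permutation test of D3839 against WT, p = 0.1, the smallest that 3 against 3 allow). The change lay mainly with Mpg, whose share on the globin side went from 50.3% ± 0.63 to 58.5% ± 0.94, while that of Rhbdf1 was 57.4% ± 0.52 and 55.6% ± 2.86. With such stretches mirrored onto both sides of both viewpoints, the difference fell to 2.81 points in WT (2.97, 2.99 and 2.47) and was -6.14 in D3839 (-2.78, -9.01 and -6.64), so that the size of the WT lean rests on this choice while the genotypes still did not overlap.

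At 20 to 80 kb both promoters pointed mostly towards the enhancers and globin genes, with 69.3% for Rhbdf1 and 69.0% for Mpg in WT and 80.2% and 78.1% in D3839. The differences of 0.33 ± 1.45 and 2.14 ± 1.53 points (SD, n = 3) overlapped between genotypes, and the D3839 value was 1.29 without D3839 library 2 and 3.30 with the stretches mirrored. The WT value was 1.43 with the stretches mirrored, above 0 in 3 of 3 libraries, and -0.34 without WT library 1. At 80 to 160 kb the lean was stronger for Rhbdf1 in 6 of 6 libraries, by 4.12 ± 0.20 points in WT (84.0% against 79.9%) and by 6.24 ± 2.82 points in D3839 (83.9% against 77.7%). Over the 6 pairs this gave the smallest p an exact paired permutation test allows (p = 0.031, and 0.25 within each genotype), with 5.18 ± 2.13 points. The windows are again not matched, since a strip of 3.92 kb at the end of the globin region falls in the Rhbdf1 window alone. On the other side the nearest strip falls in the Mpg window alone. How much of the lean comes from this shift was not tested, and mirroring the stretches left the values unchanged. D3839 library 1 stood above the other two in this range, with 90.2% for Rhbdf1 and 87.1% for Mpg against 80.2% to 81.3% and 72.6% to 73.3%. At 160 to 1000 kb the sides were closer to even for both promoters, and the difference was 2.66 ± 2.82 points in WT and 2.06 ± 0.26 in D3839.

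**Figure D1:**
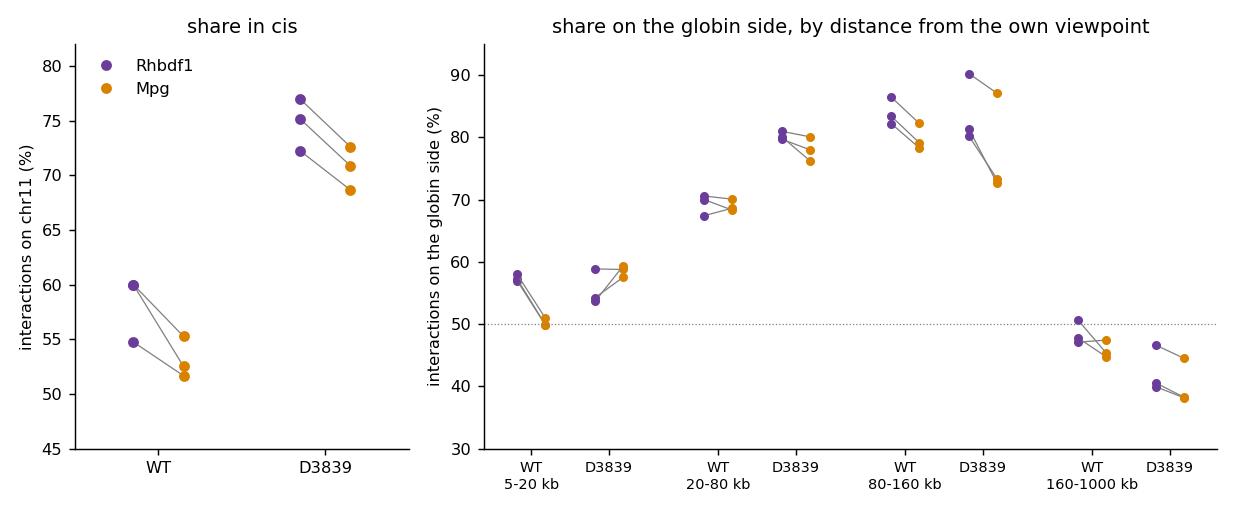
The left panel plots the percentage of interactions on chromosome 11 for each promoter (axis from 45% to 82%), and the right panel the percentage of cis interactions on the globin side, by range of distance from the own viewpoint (axis from 30% to 95%). Points are libraries and grey lines join the promoters of 1 library. The lines fall from Rhbdf1 to Mpg in 6 of 6 libraries on the left, and at 5 to 20 kb the WT lines fall while 2 of the 3 D3839 lines rise.

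The domain was then divided into 7 regions. For each region and library the share of the viewpoint's chromosome 11 interactions was taken, and the log2 of the Rhbdf1 share over the Mpg share was called the measured ratio. Since 1 promoter is always nearer, a curve of share against distance, drawn for each genotype from both promoters and both sides, gave the ratio that distance alone would produce. The difference between the measured and that expected ratio is called the adjusted ratio, positive where Rhbdf1 had more contacts than Mpg for its distance. Taking all interactions in place of those on chromosome 11 as the total adds the log2 ratio of the cis shares to every region, on average 0.13 in WT and 0.080 in D3839, so the level of a ratio depends on the total used. The curve comes from the same counts, so an adjusted ratio describes a departure from the average decay of these libraries. Of the 7 regions, 3 had adjusted ratios that did not overlap between WT and D3839 libraries, namely the globin genes and the 3' flank, which were higher in D3839, and the boundary, which was lower. Of 55 bins of 5 kb over the domain, the D3839 libraries lay wholly above the WT libraries in 4 (7.27%) and wholly below in 2 (3.64%). In an exact permutation test of 3 against 3 the smallest p is 0.1. About that share of bins would therefore separate in either direction without any difference between genotypes.

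**Figure D2:**
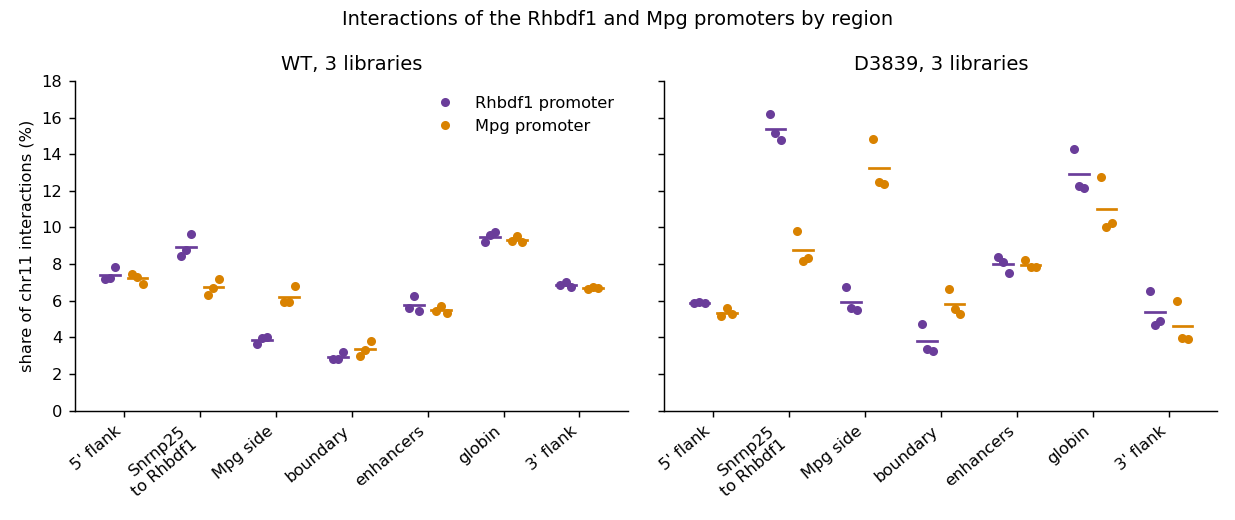
Share of each promoter's chromosome 11 interactions in the 7 regions, in percent, with a point per library and a line at the mean. In D3839 the largest shares were those of each promoter with its own gene side, 15.4% for Rhbdf1 and 13.2% for Mpg, and in the globin region the Rhbdf1 point of each D3839 library lies above its Mpg point.

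Each promoter made the more contacts with the side of its own gene body, and this was stronger in D3839. The region from Snrnp25 to Rhbdf1 (chr11:32106269-32121403, 40 fragments) held 8.42%, 8.74% and 9.62% of the Rhbdf1 interactions in WT and 16.2%, 15.2% and 14.8% in D3839. It held 6.29%, 6.72% and 7.18% of the Mpg interactions in WT and 9.79%, 8.14% and 8.36% in D3839. The measured ratio was 0.41 ± 0.024 in WT and 0.82 ± 0.086 in D3839 (SD, n = 3), and the ratios expected from distance were 0.39 and 0.76. The adjusted ratios of 0.015 ± 0.024 and 0.059 ± 0.086 were within the spread between libraries. This rests on the total and the curve. With all interactions as the total the ratios were 0.15 in WT and 0.14 in D3839, above 0 in 3 of 3 libraries of each. With fragments within 10 kb left out the D3839 ratio was 0.18, above 0 in 3 of 3 libraries, and the genotypes separated by 0.15, and a power law with exponent -1 gave -0.49 and -0.086 with a separated difference of 0.41.

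On the Mpg side (chr11:32126673-32135188, 17 fragments) the lead of Mpg was larger than distance gave. Mpg had 5.95%, 5.91% and 6.80% of its interactions there in WT and 14.8%, 12.5% and 12.4% in D3839, and Rhbdf1 had 3.63%, 3.94% and 3.99% in WT and 6.77%, 5.59% and 5.50% in D3839. The measured ratio was -0.69 ± 0.096 in WT and -1.15 ± 0.020 in D3839. The adjusted ratio was -0.21 ± 0.096 and -0.20 ± 0.020, below 0 in 6 of 6 libraries (exact paired permutation test, p = 0.031 over 6 pairs and 0.25 within each genotype). Its sign rests on the curve, since a power law with exponent -1 gave 0.47 in WT and 0.0047 in D3839, and with all interactions as the total the WT ratio was -0.083 and no longer below 0 in every library.

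The boundary region (chr11:32135189-32139864, 15 fragments), where the study's map places the CTCF sites, had adjusted ratios of opposite sign in the genotypes. Rhbdf1 had 2.79%, 2.81% and 3.21% of its interactions there in WT and 4.72%, 3.37% and 3.27% in D3839. Mpg had 2.96%, 3.32% and 3.82% in WT and 6.64%, 5.57% and 5.30% in D3839, so that every D3839 library had a higher share than every WT library for both promoters. The adjusted ratio was 0.097 ± 0.092 in WT, above 0 in 3 of 3 libraries, and -0.21 ± 0.13 in D3839, below 0 in 3 of 3 (SD, n = 3). D3839 was lower than WT by a log2 difference of -0.31 ± 0.091 (SE), with no overlap between the groups (exact permutation test, p = 0.1). The opposite signs rest on the curve and the total, since without the distance expectation the WT ratio was -0.19 and below 0 in 3 of 3 libraries, as in D3839, and with all interactions as the total the ratios were 0.23 in WT and -0.13 in D3839, where 1 of 3 libraries was above 0. The WT value was 0.24 with exponent -1, 0.055 without WT library 1 and -0.074 with the limits of this short region moved inward by 2 kb, where the genotypes overlapped (-0.15).

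The 5 kb bin that covers most of the boundary did not separate the genotypes. Its adjusted ratio was 0.0034 ± 0.17 in WT, above 0 in 1 of 3 libraries, and -0.16 ± 0.10 in D3839 (SD, n = 3). The next bin (chr11:32139484-32144384), which joins the end of the boundary to the first enhancer fragments, had opposite signs in the genotypes. That bin was singled out after its values were seen. Rhbdf1 had 1.78%, 1.95% and 2.21% of its interactions in this bin in WT and 2.26%, 2.07% and 2.03% in D3839, and Mpg had 1.71%, 1.79% and 2.00% and then 3.10%, 2.88% and 2.73%. The Mpg share was higher in all D3839 libraries than in any WT library, while the Rhbdf1 share lay between 1.78% and 2.26% in both genotypes. With counts summed in 5 kb bins, edgeR's quasi-likelihood test of the difference between genotypes called this bin alone of 321 tested, with a log2 difference of -0.45 ± 0.12 (SE) and an adjusted p = 0.037.

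The enhancer region (chr11:32139865-32169921, 64 fragments) was reached about equally by the promoters in measured shares, although Mpg is the nearer. In WT, 5.61%, 6.26% and 5.46% of the Rhbdf1 interactions and 5.42%, 5.70% and 5.32% of the Mpg interactions lay there. In D3839 the shares were 8.40%, 8.13% and 7.53% for Rhbdf1 and 8.21%, 7.85% and 7.86% for Mpg. Both promoters thus had more of their contacts in the region as a whole in every D3839 library, and by similar amounts. The 5 kb bin at its start, described above, did not share this. The measured ratio was 0.074 ± 0.053 in WT and 0.0069 ± 0.061 in D3839, and distance gave -0.17 and -0.24 as the expectation. The adjusted ratio was therefore positive in 6 of 6 libraries, 0.25 ± 0.053 in WT and 0.24 ± 0.061 in D3839 (exact paired permutation test, p = 0.031 over 6 pairs and 0.25 within each genotype). Between genotypes it differed by -0.0063 ± 0.047 (SE, exact permutation test, p = 1), which is within the spread of the libraries. Without the distance expectation the D3839 libraries were not all on 1 side of 0.

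R1 and R2, the main α-globin enhancers, were read as the stretches that served as viewpoints in the other capture. At R1 (chr11:32144385-32146902, 4 fragments), Rhbdf1 had 0.49%, 0.49% and 0.48% of its interactions in WT and 1.01%, 0.94% and 0.75% in D3839. Mpg had 0.49%, 0.46% and 0.48% in WT and 0.85%, 0.92% and 0.93% in D3839. The share at R1 was higher in every D3839 library than in any WT library for both promoters, and the measured shares of the promoters overlapped in both genotypes. The adjusted ratio at R1 was 0.23 ± 0.058 in WT and 0.27 ± 0.28 in D3839, positive in 3 and 2 of 3 libraries, and with 1 library left out the D3839 value ran from 0.14 (without library 1) to 0.41 (without library 3). At R2 (chr11:32150164-32152574, 6 fragments) the Rhbdf1 shares were 0.65%, 0.80% and 0.67% in WT and 0.94%, 0.92% and 0.77% in D3839, and the Mpg shares 0.58%, 0.71% and 0.45% and then 0.84%, 0.94% and 0.91%. The adjusted ratio at R2 was 0.48 ± 0.25 in WT and 0.19 ± 0.20 in D3839, again positive in 3 and 2 of 3 libraries, and it overlapped between genotypes. With 1 library left out the D3839 value at R2 ran from 0.092 (without library 1) to 0.30 (without library 3), and the WT value was 0.33 without WT library 3. WT libraries had 27 to 75 interactions with either stretch per promoter, which limits what could be seen there.

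The globin genes (chr11:32169922-32204979, 81 fragments) were one of the regions in which the ratio differed between genotypes. In WT the Rhbdf1 shares were 9.19%, 9.57% and 9.75% and the Mpg shares 9.24%, 9.56% and 9.20%, which overlap. In D3839 the Rhbdf1 shares were 14.3%, 12.3% and 12.2% and the Mpg shares 12.7%, 10.0% and 10.3%, with Rhbdf1 the higher in each library. The measured ratio was 0.026 ± 0.050 in WT and 0.23 ± 0.065 in D3839, and the ratios expected from distance were -0.097 and -0.12. In WT most of the adjusted ratio thus comes from the expectation, and the measured WT ratio was above 0 in 2 of 3 libraries. The adjusted ratio was 0.12 ± 0.050 in WT and 0.35 ± 0.065 in D3839 (SD, n = 3), or 0.25 and 0.43 with all interactions as the total. The difference of 0.23 ± 0.047 (SE) separated every D3839 library from every WT library (exact permutation test, p = 0.1). It did so as well without the distance expectation (0.21), with all interactions as the total (0.18) and with each library left out (0.20 to 0.26).

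The 3' flank, beyond the α-globin genes (chr11:32204980-32281294, 159 fragments), behaved like the globin region in its ratio but not in its level. Both promoters had fewer of their contacts there in D3839, 6.53%, 4.68% and 4.89% for Rhbdf1 and 5.98%, 3.94% and 3.88% for Mpg, against 6.86%, 7.04% and 6.74% and 6.65%, 6.73% and 6.69% in WT. D3839 library 1 lay closest to the WT libraries for both promoters. The adjusted ratio was 0.10 ± 0.027 in WT and 0.30 ± 0.10 in D3839, and the difference of 0.20 ± 0.062 (SE) left no overlap (exact permutation test, p = 0.1). With all interactions as the total, the ratios were 0.23 and 0.38, their difference was 0.15 and the libraries overlapped.

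**Figure D3:**
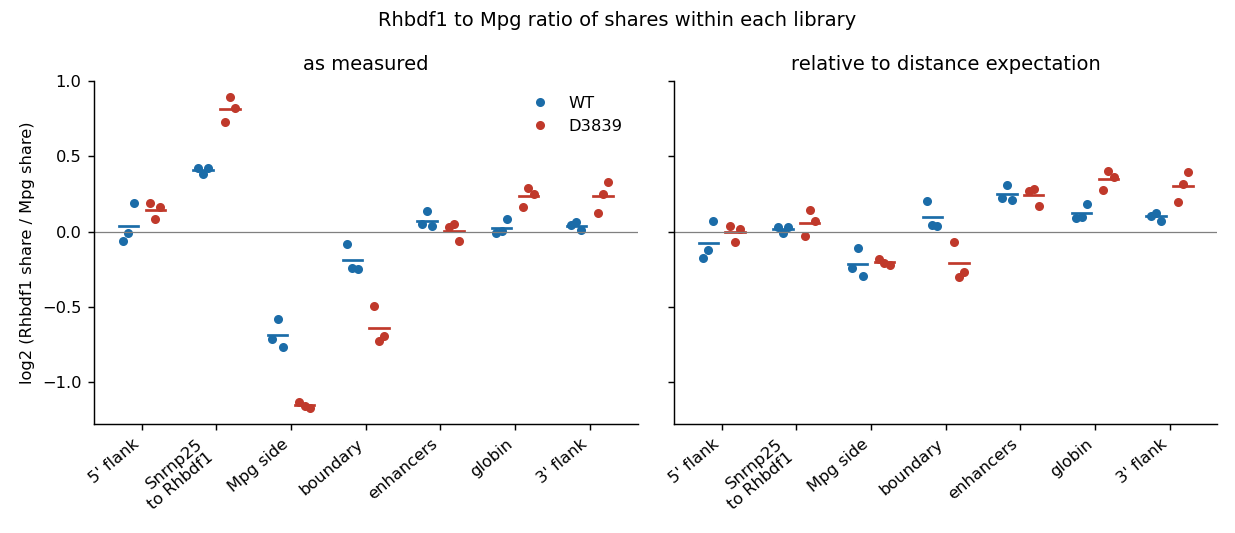
Log2 ratio of the Rhbdf1 share to the Mpg share in each library (points) with the mean (line), as measured on the left and relative to the expectation from distance on the right. In the right panel the WT and D3839 points separate at the boundary (means 0.097 and -0.21), the globin genes (0.12 and 0.35) and the 3' flank (0.10 and 0.30), and they overlap at the enhancers (0.25 and 0.24).

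In the 5' flank, which holds Il9r (chr11:32007921-32104553, 218 fragments), Rhbdf1 had 7.43% ± 0.37 and Mpg 7.22% ± 0.30 of their interactions in WT, and 5.89% ± 0.018 and 5.33% ± 0.22 in D3839 (SD, n = 3). The adjusted ratio was -0.075 ± 0.13 in WT and -0.0044 ± 0.056 in D3839, with both signs among the libraries of each genotype. Farther out, between the end of the domain and 1 Mb on the globin side, the adjusted ratio was 0.051 ± 0.076 in WT and 0.15 ± 0.072 in D3839, and on the other side it was -0.14 ± 0.094 and -0.022 ± 0.078. With all interactions as the total the WT values of these classes were 0.18 and -0.0045, and that of the globin side was 0.014 without WT library 3 and 0.089 without WT library 1. More than 1 Mb away on that other side the measured ratio was 0.073 ± 0.047 in WT, above 0 in 3 of 3 libraries, and -0.023 ± 0.055 in D3839, a difference of -0.096 without overlap (exact permutation test, p = 0.1). The D3839 sign depends on the total, since with all interactions the ratios were 0.20 in WT and 0.057 in D3839, above 0 in 3 of 3 libraries of each, and the WT ratio was 0.047 without WT library 1. More than 1 Mb away on the globin side Mpg had slightly the larger share in 6 of 6 libraries, with measured log2 ratios of -0.036 ± 0.019 (WT) and -0.11 ± 0.053 (D3839) (exact paired permutation test, p = 0.031 over 6 pairs and 0.25 within each genotype). The genotypes differed there by -0.077 without overlap (exact permutation test, p = 0.1). The larger Mpg share turned with all interactions as the total, where the WT ratio was 0.095 with Rhbdf1 the higher in 3 of 3 libraries and 1 of 3 D3839 libraries was above 0.

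The profiles of the promoters were set against each other as a whole by summing, over the 7 regions and 4 classes farther out, the absolute difference of their shares and dividing by 2. This measure is 0% for equal profiles. It was 3.94%, 3.65% and 5.13% in WT and 11.2%, 11.1% and 10.4% in D3839, so every D3839 library had the larger difference (4.24% ± 0.79 against 10.9% ± 0.43, SD, n = 3, exact permutation test p = 0.1). Unlike the adjusted ratios, this measure includes what distance gives, and the sides of the own genes contributed the largest terms.

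**Figure D4:**
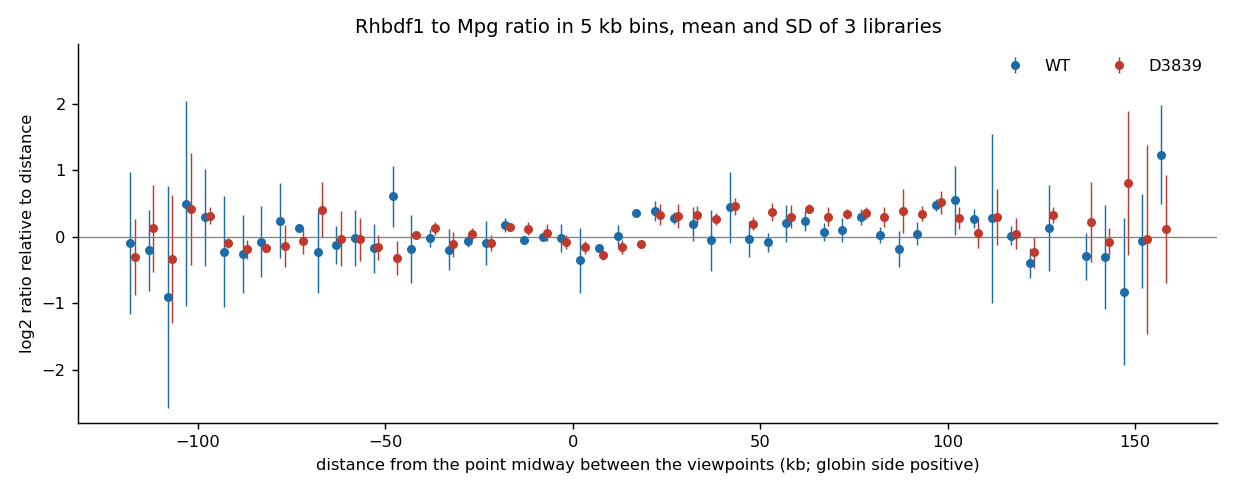
Log2 ratio of Rhbdf1 to Mpg relative to the expectation from distance in 5 kb bins, against the distance in kb from the point midway between the viewpoints, as mean and SD of 3 WT and 3 D3839 libraries. From 47.5 to 77.5 kb, over the globin genes, the ratio was positive in 3 of 3 D3839 libraries in each of the 7 bins, as it was in 24 of all 55 bins, and at 17.5 kb it was 0.35 ± 0.045 in WT and -0.11 ± 0.025 in D3839. The error bars widen with distance as counts fall.

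Single DpnII fragments were tested last, with edgeR's quasi-likelihood test over the 463 fragments that had at least 40 counts in the 12 columns. Each library was a block, and the distance expectation was an offset. In D3839, 22 fragments had more Rhbdf1 contacts than Mpg contacts at an adjusted p under 0.05 (4.75% of those tested) and 9 had more Mpg contacts (1.94%). Of the 22, 12 lay among the globin genes (of 81 tested), 5 in the enhancer region (of 61), 4 in the 3' flank (of 84) and 1 between Snrnp25 and Rhbdf1 (of 40). Of the 9 higher for Mpg, 7 lay on the Mpg side (of 17) and 2 in the boundary (of 15). The median log2 ratio was 0.33 over the globin fragments, 0.31 over the enhancers, -0.26 on the Mpg side and -0.19 in the boundary, beside 0.17 over all fragments tested. In WT 0 fragments passed in either direction (0% each), with 13 and 11 at an unadjusted p under 0.05. The test of the difference between genotypes also called 0 fragments in either direction (0%), with 21 higher and 9 lower at an unadjusted p under 0.05, so no single fragment was shown to differ between genotypes. The WT counts were lower. In simulated counts of the same depth, 200 of the 463 fragments were changed by a fold of 2, in equal numbers up and down. The test recovered 39% of these changes in WT and 73% in D3839. Far fewer fragments were called in the data, and smaller changes were not simulated. These values therefore do not give the power for the ratios seen here.

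These D3839 calls depended on how the counts were scaled and on the model. TMM factors moved the median ratio over all fragments from 0.17 to -0.012 and gave 2 fragments higher for Rhbdf1 and 19 higher for Mpg in place of 22 and 9. DESeq2 called 0 in both directions, with 10 and 11 at an unadjusted p under 0.05, and 0 were called when D3839 was fitted without the WT libraries. Without D3839 library 2, 1 fragment was higher for Rhbdf1 and 4 for Mpg. The difference between the ratio at the globin genes and the ratio on the Mpg side or at the boundary of the same libraries does not depend on the total used.

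Among the globin fragments the smallest p-values for Rhbdf1 came from chr11:32198004-32198228, chr11:32176950-32177115 and chr11:32186469-32187032. At chr11:32198004-32198228 the 3 D3839 libraries had 46, 58 and 45 Rhbdf1 counts and 27, 39 and 44 Mpg counts, or 200.1 ± 44.7 against 115.1 ± 5.74 per 100000 chromosome 11 counts. Its adjusted log2 ratio was 0.85 ± 0.18 (SE, edgeR adjusted p = 0.00075). At chr11:32176950-32177115 the libraries had 20, 41 and 36 Rhbdf1 counts and 15, 30 and 25 Mpg counts, with an adjusted ratio of 0.91 ± 0.23 (SE, edgeR adjusted p = 0.010). At chr11:32186469-32187032 they had 67, 86 and 101 Rhbdf1 counts and 71, 90 and 80 Mpg counts, with 0.50 ± 0.13 (SE, edgeR adjusted p = 0.012). Rhbdf1 was the shallower viewpoint throughout, so similar raw counts mean a larger share.

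For Mpg the smallest p-values came from chr11:32131944-32132753 and chr11:32130255-32130359 on the Mpg side and from chr11:32139813-32139864, the last fragment of the boundary. At chr11:32131944-32132753 the D3839 libraries had 73, 71 and 74 Rhbdf1 counts and 197, 227 and 208 Mpg counts, an adjusted ratio of -0.55 ± 0.12 (SE, edgeR adjusted p = 0.00075). At chr11:32130255-32130359 the counts were 48, 55 and 56 for Rhbdf1 and 127, 164 and 227 for Mpg, with -0.51 ± 0.13 (SE, edgeR adjusted p = 0.010). At chr11:32139813-32139864 they were 17, 25 and 17 and 43, 61 and 64, with -0.81 ± 0.21 (SE, edgeR adjusted p = 0.010). The calls of these 6 fragments held in 11 to 14 of the 17 or 18 alternatives in which each was tested.

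Of the 10 fragments of R1 and R2 tested in D3839, 1 passed, chr11:32146567-32146860 within R1, which was higher for Rhbdf1. Over all 463 fragments tested, 4.75% passed in that direction and 1.94% in the other, so 10 fragments are too few to set this count apart. It had 42, 74 and 49 Rhbdf1 counts and 36, 70 and 70 Mpg counts in D3839, with an adjusted ratio of 0.50 ± 0.16 (SE, edgeR adjusted p = 0.034), a call that held in 7 of 18 alternatives. In WT the same fragment had 10, 9 and 7 Rhbdf1 counts and 11, 4 and 4 Mpg counts, with 0.75 ± 0.41 (SE, edgeR adjusted p = 0.95). The other 9 fragments of the enhancer stretches had D3839 ratios from -0.24 to 0.40.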

How the data were processed

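The deposited tables list counts of reporters (ligated partners of a viewpoint, called interactions here) per DpnII fragment and viewpoint (mm9), made by the authors per library without pooling. The submitters' processing notes name Trim Galore and Bowtie, and the handling of duplicates is not given in the sources used here. Counts were used as deposited. Viewpoint stretches were read as runs of fragments that 1 capture never lists, so that those of the promoter capture, Il9r, Snrnp25 and Nprl3 included, hold no counts here. The counts between the Rhbdf1 and Mpg stretches (1.01% to 3.26% of chromosome 11 counts), left out of regions and tests, stayed in the totals. The distance curve was a quadratic in log10 distance from 2 kb to 1 Mb, per genotype, constant beyond. Fragments were tested with edgeR 4.0.16 (R 4.3.3) in 1 fit over 12 columns with Benjamini-Hochberg adjustment, with DESeq2 1.42.0 as an alternative, and the test was tried on simulated data. Region and side values were compared with two-sided exact permutation tests over libraries. The fragments named were, by rule, the 3 with the smallest p in each direction among those called, and those of R1 and R2. Region limits, members and lists were chosen with earlier results of these data known. Library numbers are shared between the genotypes, but the deviations of same-numbered libraries from their group means were uncorrelated over 55 bins (-0.0077 to 0.026), so the numbers were not taken to pair WT with D3839. The enhancer capture was used only to locate viewpoint stretches.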

Additional observations from a re-analysis of the deposited data

Results flagged for a closer look

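At the boundary the adjusted Rhbdf1 to Mpg ratio differed between genotypes by a log2 difference of -0.31 (D3839 minus WT). It was listed because all 3 WT libraries lay above 0 (0.20, 0.046 and 0.040) and all 3 D3839 libraries below 0 (-0.066, -0.30 and -0.27). An exact permutation test of 3 against 3 cannot go below p = 0.1, so the difference was not tested at the 0.05 level. It had the same sign in measured ratios, which were below 0 in both genotypes.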

How the results depend on the processing

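The enhancer ratio stayed above 0 in every library under each total and with each library left out, and the globin ratio separated the genotypes under every alternative tried. Without the distance adjustment the ratios were 0.040 in WT and 0.15 in D3839 (5' flank), 0.41, 0.82 and their difference 0.41 (Snrnp25 to Rhbdf1), -0.46 for the difference on the Mpg side, -0.19 in WT at the boundary, 0.0069 in D3839 at the enhancers, 0.026 in WT at the globin genes, and in D3839 -0.010 (difference -0.035) at R1, -0.036 at R2 and 0.0095 from the 5' flank to 1 Mb. A power law with exponent -1 gave 0.017 in D3839 (5' flank), -0.49, -0.086 and a difference of 0.41 (Snrnp25 to Rhbdf1), 0.47, 0.0047 and -0.46 (Mpg side), and a difference of -0.035 at R1. With chromosome 11 counts within 1 Mb as the total the Mpg side differed by -0.019. With all interactions as the total the ratios were 0.056 and 0.076 (5' flank), 0.15, 0.14 and a difference of -0.0070 (Snrnp25 to Rhbdf1), -0.083 in WT and a difference of -0.041 (Mpg side), -0.13 in D3839 at the boundary, a difference of 0.15 (3' flank) and -0.014 (R1), and, farther out, 0.058 and 0.057 on the 5' side in D3839 and -0.0045 to 1 Mb in WT, and 0.18 and 0.095 on the 3' side in WT. Leaving out fragments within 10 kb gave 0.18 in D3839 and a difference of 0.15 (Snrnp25 to Rhbdf1). Limits moved inward by 2 kb gave differences of -0.089 (Mpg side), -0.15 (boundary, WT -0.074) and 0.063 (enhancers). With D3839 libraries 2 and 3 counted as 1, chosen after seeing the data, the 5' flank gave 0.0066 and the class to 1 Mb 0.00043 in D3839, and the enhancers differed by 0.00055. With the viewpoint stretches mirrored onto both sides, the side difference was 2.81 points in WT and -6.14 in D3839 at 5 to 20 kb and 1.43 in WT at 20 to 80 kb. The cause of these changes was not tested.

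With 1 library left out, the ratios ran from -0.15 to -0.027 in WT, -0.023 to 0.025 in D3839 and 0.023 to 0.14 for the difference (5' flank), -0.021 to 0.038, 0.041 to 0.075 and 0.021 to 0.080 (Snrnp25 to Rhbdf1), and for the difference -0.045 to 0.075 (Mpg side), -0.027 to 0.030 (enhancers) and -0.093 to 0.19 (R1), and in D3839 -0.064 to 0.0057 and -0.052 to 0.0023 on the 5' side up to and beyond 1 Mb. Side differences ran from -4.47 to -1.58 points (D3839, 5 to 20 kb), -0.34 to 1.09 (WT, 20 to 80 kb), 1.29 to 2.77 (D3839, 20 to 80 kb) and 1.34 to 4.15 (WT, 160 to 1000 kb). Fragments called in D3839 ran from 1 to 26 (Rhbdf1) and 4 to 9 (Mpg), with the lowest counts without D3839 library 2, against 12 and 4 without D3839 library 3 and 14 and 9 without WT library 3.

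Fragments higher for Rhbdf1 and for Mpg in D3839 numbered 53 and 36 without the distance offset, 2 and 19 with TMM factors, 47 and 5 with all interactions as library size, 0 and 0 with DESeq2, 0 and 0 without a filter (48109 tested), 37 and 11 at 100 counts or more, 16 and 2 in 5 kb bins, 21 and 2 without fragments within 10 kb, and 0 and 0 with the genotypes fitted separately. In WT they numbered 2 and 6 without the offset and 0 and 3 under the power law, and in 5 kb bins the difference between genotypes gave 0 and 1. Without the library block (no replicate block) 1 and 0 were called in D3839. A replicate block that pairs same-numbered WT and D3839 libraries left 0 and 0 fragments for the difference between genotypes and changed no call of the 7 regions, with -0.31 at the boundary, 0.23 at the globin genes and 0.20 at the 3' flank. From the 5' flank to 1 Mb, where the unpaired groups overlap, the same block gave a difference of 0.11 that was above 0 in 3 of 3 pairs (exact paired permutation test, p = 0.25, the limit for 3 pairs). Among fragments of R1 and R2 that were not called, the sign turned without the offset at those starting at 32144385 (-0.065 in WT, -0.24 in D3839), 32145279 (-0.027), 32151062 (-0.076) and 32152405 (-0.19), with TMM factors at 32144385 (-0.15), 32151062 (-0.044) and 32152405 (-0.16), and in WT at 32145279 under the power law (0.033) and all interactions (0.099). With 1 library left out these and their neighbours ran from -0.058 to 0.33 (32144385), -0.12 to 0.099 (32145279), -0.059 to 0.39 (32150268) and -0.064 to 0.80 (32151882) in WT, and -0.030 to 0.35 (32151062) and -0.045 to 0.15 (32152405) in D3839. Depth limits the WT fragments more than the D3839 fragments.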
